A study of Mus musculus with 40 samples.

Results

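The 10 genes described here are transcripts that ERK, the kinase at the end of the RAS-RAF-MEK-ERK cascade, switches on and that in most cases feed back on that cascade: the phosphatases Dusp4 and Dusp6, the Sprouty genes Spry1, Spry2 and Spry4, the Spred genes Spred1 and Spred2, the ETS transcription factors Etv4 and Etv5, and Phlda1. They were chosen by name as known outputs of the pathway, though with earlier results of these data known. They were matched by mouse symbol to the 51789 Ensembl genes of the count table, and all 10 were found. Transcripts of mouse melanoma lines in culture were measured with QuantSeq, and 20 groups of 2 libraries give 40 libraries. Each read marks the 3′ end of a transcript, so levels were compared between groups for 1 gene at a time and never between genes.

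The groups came from 3 lines. B16-F10 was represented by a control clone and a clone labelled Bmal1 knockout (KO), both obtained from another laboratory. Among their alleles, YUMM2.1 carries BrafV600E, heterozygous loss of Cdkn2a and stabilized β-catenin, and YUMM1.7 carries BrafV600E with loss of Cdkn2a, so the ERK cascade is driven by mutant Braf in every YUMM library, controls included. YUMM2.1 and aC3, a single CRISPR clone of YUMM2.1 labelled Bmal1 knockout, held a Bmal1::dLUC reporter and, like YUMM1.7, received an empty vector (EV), wild type Bmal1 (WT) or dHLH-Bmal1 (dHLH), a mutant without the basic helix-loop-helix domain that binds DNA. The labels write this mutant as bHLH in the cells without a hairpin and as dH in those with one, and both were read as the same construct. Cells with these lentiviral vectors were sorted for GFP. The remaining 9 groups were YUMM2.1 cells with EV, WT or dHLH that also carried a puromycin-selected hairpin: the scrambled shNC, or shMyh9#2 or shMyh9#4 against Myh9, the heavy chain of nonmuscle myosin IIA. Bmal1 is a transcription factor of the circadian clock, and the study asked how its loss or excess, and that of Myh9, changes the state of melanoma cells.

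ERK signalling is held in check by its own products. Dusp6 dephosphorylates ERK in the cytoplasm and Dusp4 dephosphorylates ERK and related kinases in the nucleus, Sprouty proteins act between receptors and RAF, and Spred proteins bring the RAS inhibitor neurofibromin to the membrane. Etv4 and Etv5 carry the signal on to further genes, and Phlda1 is a pleckstrin homology domain protein that is induced by growth factors. In melanoma with mutant Braf, where feedback no longer shuts off the kinase, high levels of these transcripts are widely used as a readout of how strongly ERK is signalling.

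ERK acts on promoters in part by phosphorylating ETS factors, which bind sites around the core GGAA (TTCC on the other strand). RefSeq start sites of build GRCm38.p6 were at hand for 6 of the 10 genes, in 7 windows of 300 bases (250 before the start and 50 after it). The 100 bases before the start are printed for the genes with the clearest differences in the results, 5′ to 3′ on the strand of the gene, with each ETS core in capitals.
Dusp6, chr10:99263131-99263230, plus strand: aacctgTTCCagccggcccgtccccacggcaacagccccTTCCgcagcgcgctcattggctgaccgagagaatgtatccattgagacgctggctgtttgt
Etv5, downstream start, chr16:22438369-22438468, minus strand: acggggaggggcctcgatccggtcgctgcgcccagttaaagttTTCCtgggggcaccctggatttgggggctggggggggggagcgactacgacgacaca
Etv5, upstream start, chr16:22439571-22439670, minus strand: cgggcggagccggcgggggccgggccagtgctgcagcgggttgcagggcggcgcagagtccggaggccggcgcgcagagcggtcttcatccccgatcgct
Spred1, chr2:117120971-117121070, plus strand: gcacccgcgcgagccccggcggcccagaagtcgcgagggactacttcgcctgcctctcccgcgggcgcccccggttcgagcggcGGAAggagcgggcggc
Spry2, chr14:105896820-105896919, minus strand: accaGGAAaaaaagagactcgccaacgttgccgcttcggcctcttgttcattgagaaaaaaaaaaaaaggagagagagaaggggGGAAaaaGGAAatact

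In the 300-base windows, counted on both strands, GGAA occurred 6 times at Dusp6 and at the downstream Etv5 start, 5 times at Spred1 and at Spry2, and not at the upstream Etv5 start. The core is common: 31499 of 32817 windows of all genes hold it, with a median of 3 matches. The longer CCGGAA, found in 14.9% of all windows, occurred among the 7 windows only at Spry2. None of the 7 held the CArG box bound by serum response factor (SRF), which 1.63% of all windows hold, or the E-box CACGTG bound by Bmal1 with Clock, which 7.15% hold. These are matches of letters within a short window and do not show binding.

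Library totals ran from 3643332 to 22970049 counts with a median of 10021164.5. Over the 40 libraries the counts were 260 to 13128 for Phlda1, 386 to 2395 for Spred1, 136 to 869 for Spry2, 94 to 5478 for Dusp6, 13 to 2905 for Etv5, 28 to 251 for Spred2, 17 to 658 for Dusp4, 3 to 545 for Etv4, 4 to 199 for Spry1 and 0 to 385 for Spry4, so values of the last 3 rest on few reads in the groups where they are low. Levels are CPM, the counts scaled to a common library size, after TMM normalization, and differences are log2 fold changes with their standard error (SE) from edgeR's quasi-likelihood fit, with a gene called when its p, adjusted by Benjamini-Hochberg over all genes tested, was under 0.05. The labels do not say whether the 2 libraries of a group come from separate cultures, so p-values measure the spread between these libraries only, and permuting 2 against 2 libraries gives a two-sided p of 0.333 at the lowest. In bulk RNA, fewer cells that express a gene and less RNA per cell cannot be told apart.

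Bmal1, listed as Arntl, was at 15.2 and 10.7 CPM in the B16-F10 control libraries while the pair labelled Bmal1 KO gave 13.3 and 11.5 CPM, so the groups do not separate. A 3′ tag does not check a label if the edited part lies elsewhere, nor a construct without the 3′ end of the native transcript, and Arntl overlapped between YUMM2.1-WT (13.9 and 18.3 CPM) and YUMM2.1-EV (15.9 and 13.9 CPM), while it reached 51.1 and 35.4 CPM in YUMM2.1-dHLH. In aC3-EV, labelled as knockout, it was at 33.1 and 30.5 CPM, above YUMM2.1-EV. These are RNA values. The paper describes the B16-F10 clone and aC3 as Bmal1-null and shows immunoblots of Bmal1 protein for both. It also reports that aC3 lost clock function by the Bmal1::dLUC reporter. Myh9 was at 665.5 to 993.7 CPM with shNC, 229.1 to 290.7 CPM with shMyh9#2 and 465.6 to 678.7 CPM with shMyh9#4. In a supplementary table of the study, the column EV-2 of YUMM2.1 holds the library deposited as WT replicate 1 and the column WT-1 holds the library deposited as EV replicate 2, so results on these cells are given by the deposited labels, with the 2 labels exchanged and without the 2 libraries. Of the melanocytic markers, Sox10, a defining transcription factor of melanocytes, was near 0 in YUMM1.7 (0.0908 to 1.52 CPM over 6 libraries). The 6 melanocytic markers summed to 18190 to 24000 CPM in B16-F10, to 498.0 to 516.2 CPM in YUMM2.1-EV and to 10.7 to 14.8 CPM in YUMM1.7. Over all 40 libraries 5 leukocyte markers summed to at most 0.921 CPM, 3 keratinocyte markers to at most 0.486 CPM and 3 endothelial markers to at most 26.4 CPM.

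The 3 lines held the 10 genes at different levels, and several of them were near 0 in B16-F10. Etv5 was at 1.24 and 0.630 CPM in the B16-F10 control libraries, while YUMM2.1-EV had 231.3 and 255.0 CPM and YUMM1.7-EV had 124.1 and 101.3 CPM. Etv4 was at 0.143 and 0.679 CPM in the B16-F10 control, against 32.0 and 50.3 CPM in YUMM2.1-EV and 33.3 and 32.0 CPM in YUMM1.7-EV. Spry4 was at 0.858 and 0.485 CPM in the B16-F10 control, against 22.3 and 12.4 CPM in YUMM2.1-EV and 34.0 and 25.2 CPM in YUMM1.7-EV. For all 3 genes the B16-F10 control libraries lay below those of both EV groups with no overlap. Phlda1 ran the other way, at 418.1 and 425.1 CPM in the B16-F10 control, above 321.8 and 263.4 CPM in YUMM2.1-EV and 165.8 and 167.5 CPM in YUMM1.7-EV.

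In edgeR's test of the B16-F10 control against YUMM2.1-EV, 7 of the 10 genes were lower, where 25.6% of all genes were lower, and Phlda1 alone was higher (log2 fold change 0.53, SE 0.117), where 21.2% of all genes were higher. The 7 were Etv5 (-8.002), Etv4 (-6.61), Spry4 (-4.68), Spry2 (-3.05), Dusp6 (-2.58), Spred1 (-1.61) and Spry1 (-1.35). Without YUMM2.1-EV replicate 1 the difference of Spry1 was -0.61 with an adjusted p of 0.407, and without B16-F10 control replicate 2 it was -1.10 with an adjusted p of 0.152. Against YUMM1.7-EV, 7 genes were lower in the B16-F10 control, where 25.0% of all genes were lower, and 3 were higher, where 22.7% were: Dusp4 (2.86), Spry1 (1.96) and Phlda1 (1.34). The lower Spred2 (-1.06) in that comparison was lost when any 1 of the 4 libraries was left out.

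YUMM1.7 differed from YUMM2.1 in fewer of the genes. Dusp4, the nuclear phosphatase, was at 3.30 and 2.15 CPM in YUMM1.7-EV and at 15.5 CPM in both libraries of YUMM2.1-EV. Spry1 was at 1.16 and 1.22 CPM in YUMM1.7-EV and at 16.5 and 7.12 CPM in YUMM2.1-EV. Neither gene's libraries overlapped between the lines, while Spry4 had a log2 fold change of 0.76 that missed the threshold (edgeR adjusted p = 0.166). With edgeR, 6 of the 10 genes were lower in YUMM1.7-EV, where 16.5% of all genes were lower: Spry1 (-3.31), Dusp4 (-2.502), Dusp6 (-1.32), Etv5 (-1.11), Phlda1 (-0.81) and Spry2 (-0.58). None was higher, where 15.3% of all genes were. Without YUMM2.1-EV replicate 1 the difference of Dusp6 was -1.02 with an adjusted p of 0.0594. Each line is compared through 1 pair of groups, so line, genotype and culture cannot be told apart.

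aC3-EV, of the clone labelled Bmal1 knockout, differed from YUMM2.1-EV in 1 of the 10 genes, where 2.48% of all genes differed. Etv5 was at 144.2 and 141.4 CPM in aC3-EV, below both YUMM2.1-EV libraries, with a log2 fold change of -0.77 (SE 0.124, edgeR adjusted p = 0.000272). Spry1, at 2.77 and 4.27 CPM, missed the threshold (-1.75, edgeR adjusted p = 0.0551). The number of genes called in this comparison ranged from 0 to 2 over the alternatives. Because aC3 is 1 clone, loss of Bmal1 and properties of the clone cannot be told apart.

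**Figure D1:**
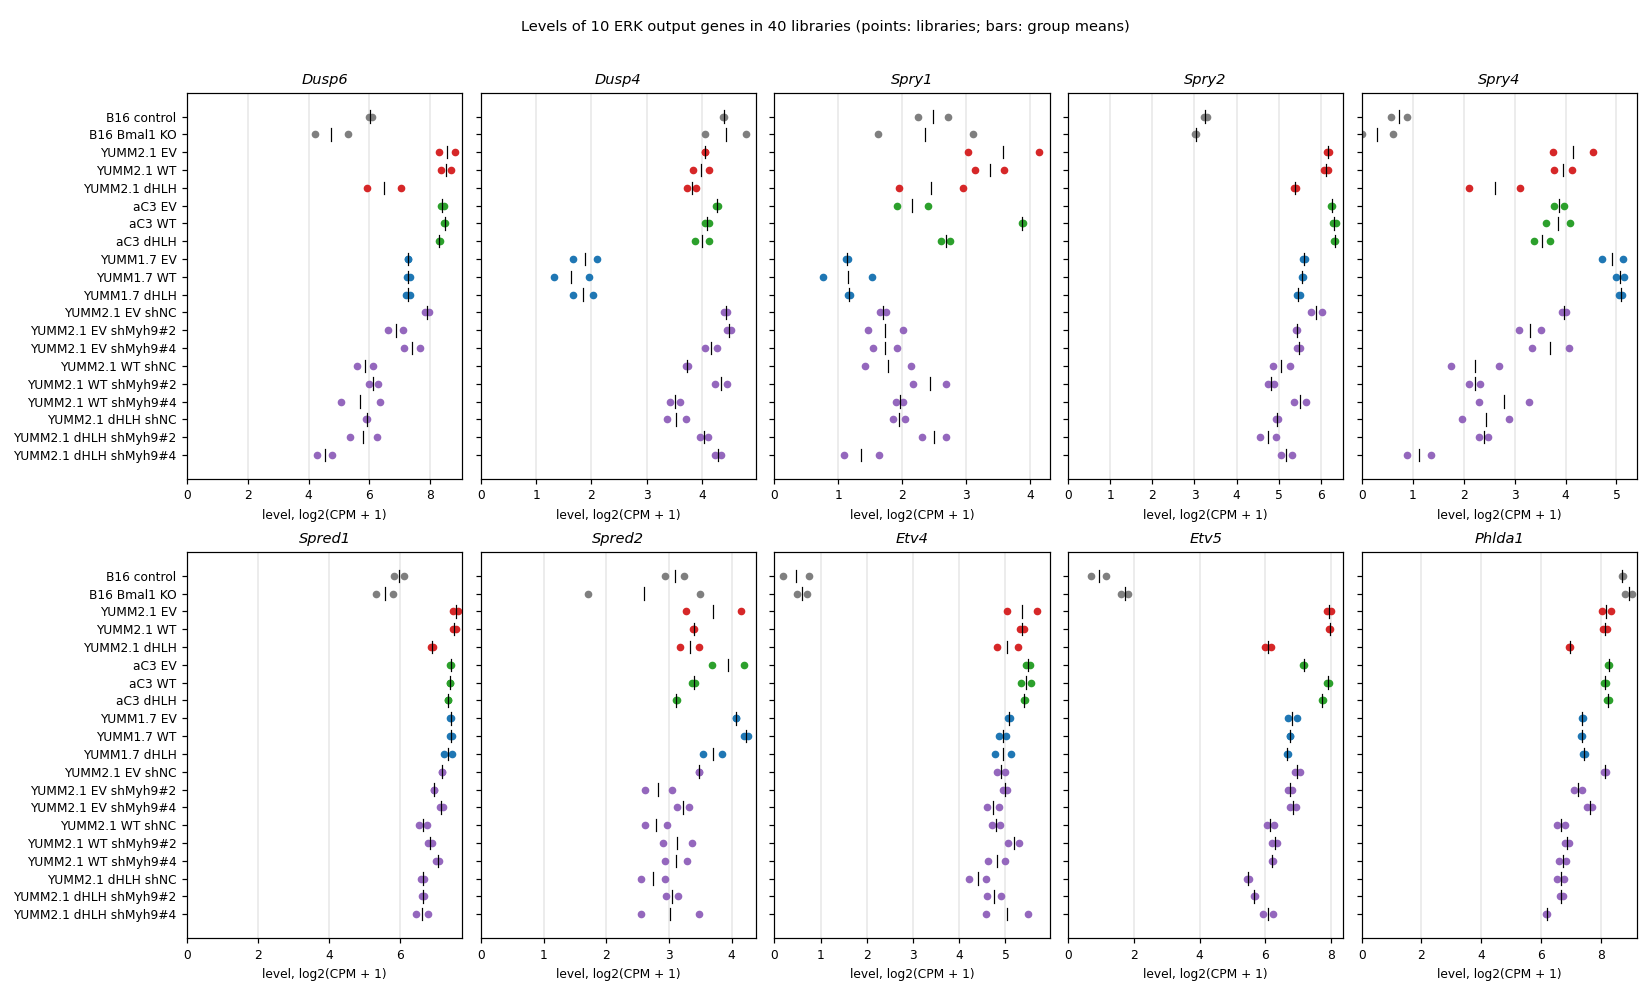
Level of each of the 10 genes (x axis, log2 of CPM + 1) in all 20 groups (y axis). Points are libraries, short bars are group means, and colours mark B16-F10 (grey), YUMM2.1 (red), aC3 (green), YUMM1.7 (blue) and YUMM2.1 with hairpins (purple). Etv4 and Etv5 are lowest in the 4 B16-F10 libraries, Spry4 is low there and in dHLH cells with shMyh9#4, which overlap, and the lowest group means of Dusp4 and Spry1 are in YUMM1.7.

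Ordered by group mean, Dusp6 was highest in YUMM2.1-EV (384.6 ± 99.4 CPM, SD, n = 2) and lowest in dHLH cells with shMyh9#4 (22.4 ± 5.83 CPM, SD, n = 2), while Etv5 was highest in YUMM2.1-WT (247.1 ± 1.66 CPM, SD, n = 2) and lowest in the B16-F10 control (0.935 ± 0.431 CPM, SD, n = 2). Neighbours in these orders mostly cannot be separated: of the 19 neighbouring pairs of groups, libraries overlapped in 18 for Dusp4, 17 for Spry4, 16 each for Etv4, Spred2 and Spry1, 13 for Dusp6, 12 for Phlda1, 10 for Etv5, 9 for Spred1 and 8 for Spry2.

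In YUMM2.1, 5 of the 10 genes were lower with dHLH-Bmal1 than with EV, and none passed the test with wild type Bmal1. Dusp6 was at 454.9 and 314.3 CPM with EV, 413.1 and 329.7 CPM with WT, and 132.1 and 60.1 CPM with dHLH. Etv5 was at 231.3 and 255.0 CPM with EV, 248.3 and 246.0 CPM with WT, and 62.9 and 71.2 CPM with dHLH. Phlda1 was at 321.8 and 263.4 CPM with EV, 294.0 and 271.7 CPM with WT, and 124.4 and 122.6 CPM with dHLH. In each of these 3 genes both dHLH libraries lay below all 4 of the others, and EV and WT libraries overlapped.

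Spry2 and Spred1, inhibitors acting upstream of ERK, were lower by a smaller fold. Spry2 was at 72.2 and 70.1 CPM with EV, 66.8 and 71.2 CPM with WT, and 40.2 and 41.3 CPM with dHLH. Spred1 was at 198.9 and 179.0 CPM with EV, 188.6 and 177.9 CPM with WT, and 121.0 and 116.8 CPM with dHLH. Here too the dHLH libraries stood apart. Spry4 (22.3 and 12.4, then 16.5 and 12.8, then 7.67 and 3.33 CPM) and Spry1 (16.5 and 7.12, then 11.03 and 7.78, then 6.72 and 2.85 CPM, in the same order of groups) were also below EV and WT in both dHLH libraries, but their EV libraries were spread widely and their differences from EV (-1.64 and -1.29) missed the threshold. Dusp4, Spred2 and Etv4 had differences of -0.25, -0.48 and -0.35 from EV, none past the threshold.

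**Figure D2:**
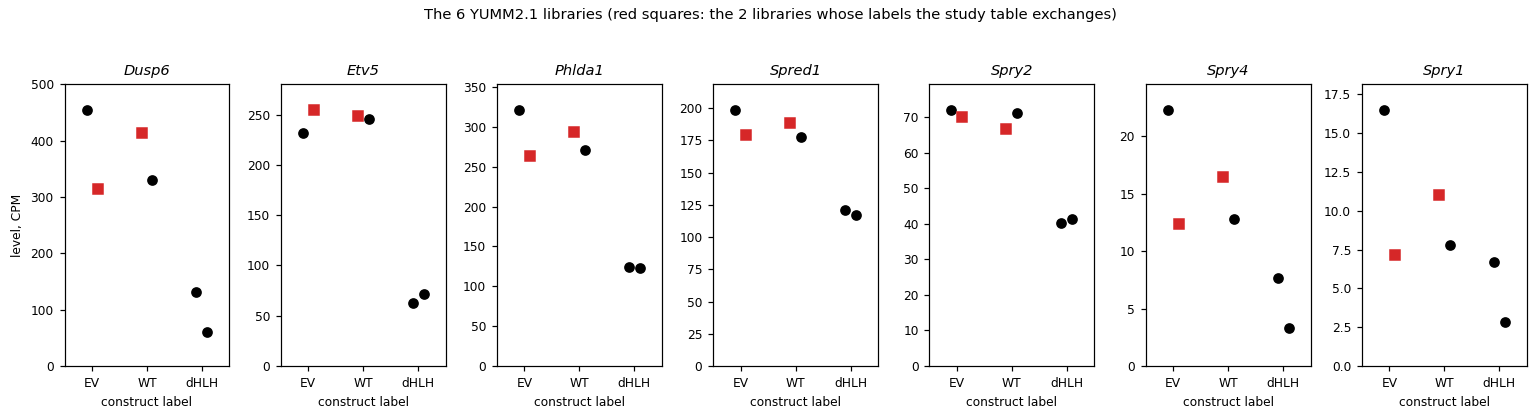
Level in CPM (y axis, from 0) of 7 of the genes in the 6 YUMM2.1 libraries by deposited construct label (x axis). Each point is 1 library, and red squares are the 2 libraries that the study's table holds under each other's label. For all 7 genes the 2 dHLH libraries are the lowest.

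Tested with edgeR, 5 of the 10 genes were lower in YUMM2.1-dHLH than in YUMM2.1-EV, where 6.72% of all genes were lower, and none was higher, where 6.51% were. The log2 fold changes were -1.996 for Dusp6 (SE 0.368, adjusted p = 0.0164), -1.85 for Etv5 (SE 0.13, adjusted p = 0.00103), -1.24 for Phlda1 (SE 0.141, adjusted p = 0.00376), -0.80 for Spry2 (SE 0.123, adjusted p = 0.00931) and -0.66 for Spred1 (SE 0.121, adjusted p = 0.0159). All 10 differences were negative, with a median of -1.02 against -0.01 over all genes tested. The same 5 genes were lower against YUMM2.1-WT (-1.94, -1.87, -1.19, -0.75 and -0.62 in the same order), where 6.60% of all genes were lower and 6.44% higher, and both comparisons share the dHLH libraries. Against WT, leaving out 1 library left 2 to 4 of the 5: Spred1 was lost without any 1 of the 4, Spry2 without any but dHLH replicate 2, and Dusp6 without WT replicate 1 (-1.77, edgeR adjusted p = 0.116). Without the 2 libraries of doubtful label, which left 1 WT library, the differences were -1.77, -1.87, -1.13, -0.80 and -0.58 in the same order. Spry2 and Spred1 were then no longer called, and calls over all genes in that fit are not given here. With those labels exchanged 6 were called, among 2706 of all 14323 genes, and with the replicate number as a block 7, among 3727 of 14323, where 1868 were called without either.

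With the 2 doubtful labels exchanged, 7 genes were lower against EV, Spry1 (-1.50, adjusted p = 0.0167) and Spry4 (-1.79, adjusted p = 0.00507) besides the 5, and calls over all genes went from 1894 to 4114 of 14323. Without the 2 libraries 6 were lower, among 1767 of 14878 genes called, with Spry1 and Spry4 gained and Spred1 (-0.75, adjusted p = 0.0539) lost. With the replicate number as a block, since same-numbered YUMM2.1 libraries deviated together, 7 were lower, with Spry1 at -1.29 (adjusted p = 0.00639) and Spry4 at -1.66 (adjusted p = 0.000911), and 3877 of 14323 genes were called. Without YUMM2.1-EV replicate 1, Dusp6 (-1.70) and Spred1 (-0.59) lost their calls. Spred1 also lost its call without dHLH replicate 1 (-0.70) or dHLH replicate 2 (-0.65), and it was called in 8 of 12 alternatives. Spry4 instead passed the threshold without YUMM2.1-EV replicate 2 (-2.01) or dHLH replicate 1 (-2.39). Etv5, Phlda1 and Spry2 were called in all 12 alternatives. By the deposited labels DESeq2 called Spry4 against EV (-1.65, adjusted p = 0.00598) but not Spry1 (-1.30, adjusted p = 0.111). It called Spry4 against WT too (-1.39, adjusted p = 0.0285).

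Of the 6 melanocytic markers, Sox10 was lower with dHLH as well. It was at 501.5 and 483.8 CPM with EV and at 66.3 and 72.9 CPM with dHLH, which differ by -2.82 on the log2 scale (SE 0.157). Mitf, another transcription factor of melanocytes, was at 14.5 and 14.2 CPM with EV and at 14.96 and 21.1 CPM with dHLH (0.33, edgeR adjusted p = 0.378), and the other 4 markers were each under 0.3 CPM. The 6 markers summed to 81.4 to 94.1 CPM with dHLH, nearly all of it Sox10 and Mitf, while the 3 endothelial markers summed to 8.80 to 11.2 CPM with dHLH and 8.52 to 10.1 CPM with EV. The part of Sox10 in the lower ERK outputs was not tested.

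By the deposited labels, WT-Bmal1 gave no such difference in these cells. When WT was set against EV, none of the 10 genes and 0% of all genes passed edgeR's test, 98 genes had an unadjusted p under 0.05, none of them among the 10, and DESeq2 called none. The 10 differences lay between -0.42 and 0.02. With the 2 labels exchanged Spry1 was at -0.89 (edgeR adjusted p = 0.37) and Dusp6 at -0.44 (adjusted p = 0.54). The adjusted p of the 10 then ran from that of Spry1 to 0.96 for Spry2. Calls over all genes in that fit are not given here, so the 10 are not read against them. Without the 2 libraries Spry1 was at -1.10, Dusp6 at -0.48 and Etv4 at 0.35. From RNA of these cell lines the paper reports genes that WT and dHLH moved the same way relative to EV, Sox9 among those increased. It also reports enrichment of an epithelial to mesenchymal gene set with WT. Its supplementary table holds the 2 libraries under each other's label. Which labels are right is not known, so the size of the WT effect in these cells is uncertain.

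The same cells with the control hairpin shNC gave a different picture for WT-Bmal1. Dusp6 was at 246.6 and 229.4 CPM in EV-shNC, 68.8 and 47.6 CPM in WT-shNC, and 59.96 and 58.25 CPM in dHLH-shNC. Phlda1 was at 290.9 and 275.9 CPM in EV-shNC, 92.4 and 112.0 CPM in WT-shNC, and 91.2 and 109.5 CPM in dHLH-shNC. Both genes were low with either form of Bmal1, and WT and dHLH libraries overlapped. Etv5 was instead graded, at 130.9 and 117.3 CPM in EV-shNC, 65.01 and 75.01 CPM in WT-shNC, and 44.8 and 42.2 CPM in dHLH-shNC.

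Spry4 was at 14.19 and 15.03 CPM in EV-shNC, 5.44 and 2.38 CPM in WT-shNC, and 6.46 and 2.92 CPM in dHLH-shNC. Spry2 was at 53.6 and 63.9, 28.0 and 37.3, and 30.4 and 29.7 CPM in the same groups. Spred1 was at 144.4 and 145.4, 106.8 and 91.3, and 101.9 and 95.6 CPM. In all 3 inhibitors both constructs lay below EV without overlap, and the libraries of WT and dHLH overlapped. Dusp4, which had not differed without the hairpin, was at 19.99 and 20.98 CPM in EV-shNC, 12.38 and 12.01 CPM in WT-shNC, and 12.1 and 9.25 CPM in dHLH-shNC.

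With edgeR, 7 of the 10 genes were lower in WT-shNC than in EV-shNC, where 10.6% of all genes were lower, and none was higher, where 11.7% were. The log2 fold changes were -2.03 for Dusp6 (SE 0.326, adjusted p = 0.000214), -1.91 for Spry4 (SE 0.438, adjusted p = 0.00421), -1.47 for Phlda1 (SE 0.133, adjusted p = 3.47e-07), -0.84 for Spry2, -0.82 for Etv5 (SE 0.119, adjusted p = 7.77e-05), -0.75 for Dusp4 and -0.55 for Spred1. In dHLH-shNC 7 genes were lower, where 12.5% of all genes were lower and 13.9% higher: Dusp6 (-2.001), Spry4 (-1.56), Etv5 (-1.50), Phlda1 (-1.49), Spry2 (-0.96), Dusp4 (-0.91) and Spred1 (-0.54). The 2 comparisons share the EV-shNC libraries. The medians of the 10 genes were -0.80 and -0.93, against 0.02 over all genes in both. For WT, Spry4 lost its call without WT-shNC replicate 2 (-1.42, edgeR adjusted p = 0.082), and Dusp4 without EV-shNC replicate 2 (-0.73, adjusted p = 0.0516) or WT-shNC replicate 2 (-0.72, adjusted p = 0.0642). For dHLH, Spry4 lost its call without EV-shNC replicate 2 (-1.53, adjusted p = 0.0526) or dHLH-shNC replicate 2 (-1.18, adjusted p = 0.108).

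Between dHLH-shNC and WT-shNC only Etv5 differed among the 10 (-0.68, SE 0.123, edgeR adjusted p = 0.00542), where 1.91% of all genes differed, and this call was lost when WT-shNC replicate 2, dHLH-shNC replicate 1 or dHLH-shNC replicate 2 was left out (adjusted p 0.0732 to 0.117). Sox10 was at 330.0 and 334.0 CPM in EV-shNC, 98.7 and 99.9 CPM in WT-shNC and 22.7 and 26.1 CPM in dHLH-shNC. Mitf was at 16.3 and 14.6, 21.4 and 18.4, and 18.3 and 18.01 CPM in the same groups and passed no test between them. The 3 endothelial markers summed to 7.96 to 10.1 CPM in EV-shNC, 20.9 to 21.5 CPM in WT-shNC and 14.5 to 16.55 CPM in dHLH-shNC. The part of these markers in the results with shNC was not tested.

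Whether WT-Bmal1 acted differently with shNC and without a hairpin was tested as a difference of the 2 effects, a test added after the values were seen. It was lower with shNC for 4 of the 10 genes, where 7.53% of all genes differed in either direction: Dusp6 (-1.98, SE 0.487, edgeR adjusted p = 0.0106), Phlda1 (-1.42, SE 0.167, adjusted p = 3.52e-06), Etv5 (-0.85, SE 0.177, adjusted p = 0.00266) and Spry2 (-0.80, SE 0.181, adjusted p = 0.00556). Without the 2 libraries of doubtful label Dusp6 and Spry2 lost their calls while Etv5 and Phlda1 kept theirs. How many of all genes were called in that fit is not given here. Dusp6 was lost without YUMM2.1-EV replicate 2 (-1.71, adjusted p = 0.0872), YUMM2.1-WT replicate 1 (-1.80, adjusted p = 0.057) or WT-shNC replicate 2 (-1.71, adjusted p = 0.0854), and Spry2 without EV-shNC replicate 2 (-0.63, adjusted p = 0.0767) or WT-shNC replicate 1 (-0.58, adjusted p = 0.0756). With the 2 doubtful labels exchanged the 4 genes kept their calls. The cells with shNC had also been transduced again and selected with puromycin, in a separate experiment. Hairpin vector, selection and experiment therefore cannot be told apart, and the doubt about the 2 labels bears on this test as well.

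**Figure D3:**
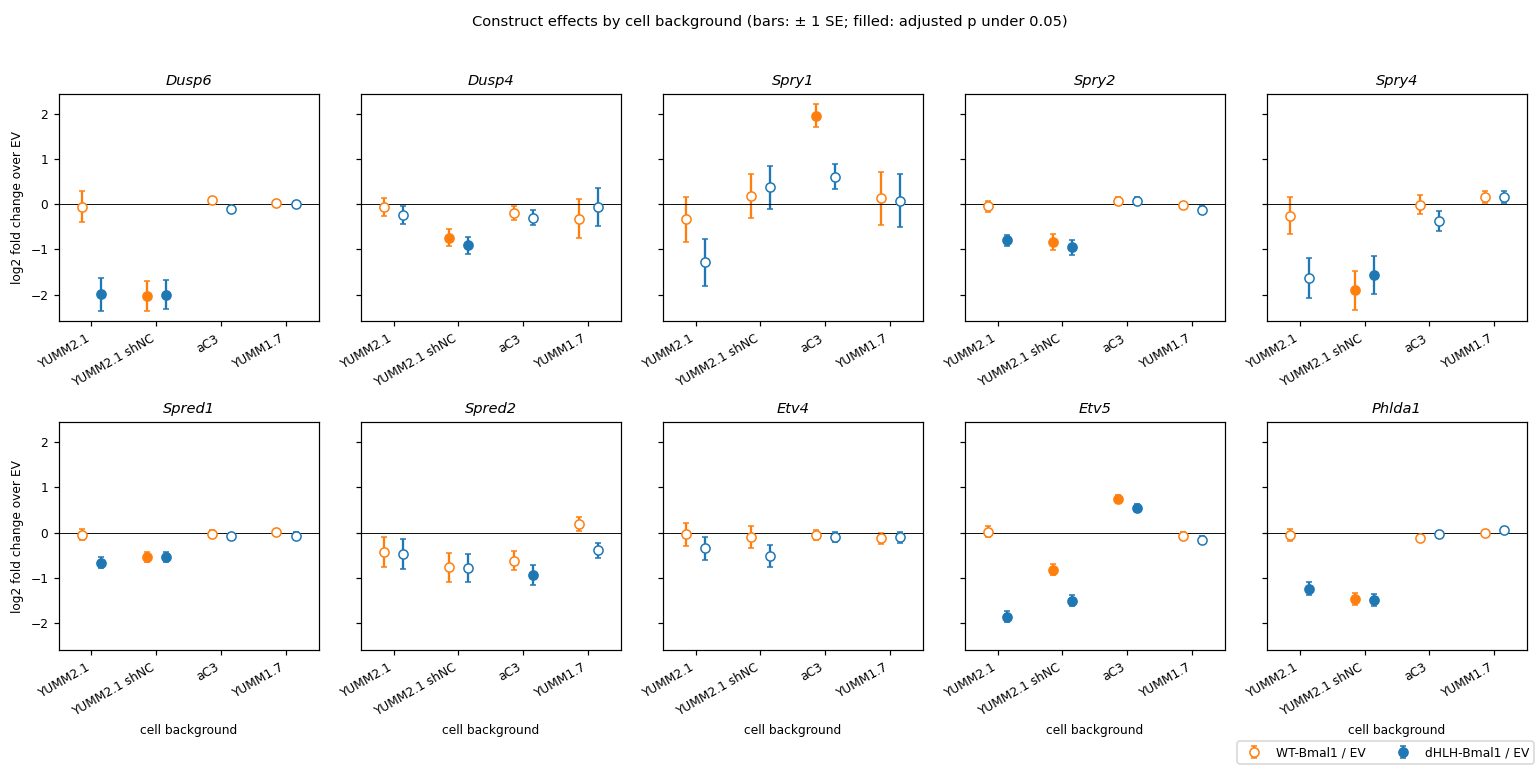
Log2 fold change over EV (y axis) of each gene with WT-Bmal1 (orange) and dHLH-Bmal1 (blue) in 4 cell backgrounds (x axis). Points are estimates, bars are ± 1 SE, and filled points have an adjusted p under 0.05. For Dusp6 and Phlda1 both constructs are low in YUMM2.1 with shNC, dHLH alone is low in YUMM2.1, and neither differs in aC3 or YUMM1.7.

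In aC3 most of these genes did not pass the test with either construct. Dusp6 ranged from 313.0 to 362.2 CPM over the 6 aC3 libraries with a median of 338.8 CPM. Phlda1 ranged from 278.0 to 308.9 CPM, Spry2 from 75.2 to 81.2 CPM and Spred1 from 163.6 to 171.2 CPM. Their construct effects over EV lay between -0.12 and 0.08, with SE of at most 0.0884.

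Etv5 rose with both forms of Bmal1 in aC3, from 144.2 and 141.4 CPM with EV to 234.0 and 244.7 CPM with WT and 212.6 and 208.0 CPM with dHLH. The log2 fold changes were 0.74 (SE 0.0803, edgeR adjusted p = 7.46e-05) and 0.54 (SE 0.0804, adjusted p = 0.00104). Spry1, an inhibitor of receptor tyrosine kinase signalling, was at 2.77 and 4.27 CPM with EV, 13.8 and 13.6 CPM with WT and 5.10 and 5.70 CPM with dHLH. It rose with WT by 1.96 (SE 0.252, adjusted p = 0.000303), and the libraries with dHLH lay between those of EV and WT. Spred2 was at 11.9 and 17.3 CPM with EV and at 7.65 and 7.74 CPM with dHLH, a difference of -0.94 (adjusted p = 0.0146) that was lost without aC3-EV replicate 2 (-0.64, adjusted p = 0.213).

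In all, 2 of the 10 genes differed between aC3-WT and aC3-EV, where 11.2% of all genes differed, and 2 between aC3-dHLH and aC3-EV, where 10.9% did. Between aC3-dHLH and aC3-WT only Spry1 differed (-1.35, edgeR adjusted p = 0.0164), where 0.877% of all genes did, and it lost its call without any of 3 of the 4 libraries. Sox10 was at 441.2 to 610.1 CPM over the 6 aC3 libraries.

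None of the 10 genes passed the test in YUMM1.7. Over its 6 libraries Dusp6 ranged from 148.4 to 160.9 CPM, Phlda1 from 160.2 to 178.4 CPM, Spred1 from 151.3 to 175.8 CPM, Etv5 from 100.3 to 124.1 CPM and Spry4 from 25.2 to 34.3 CPM. edgeR called none of the 10 for WT against EV, dHLH against EV or dHLH against WT, where 0.138%, 0.630% and 2.57% of all genes were called, and DESeq2 called none of the 10 either. Over all genes 1423, 1428 and 2130 had an unadjusted p under 0.05, among them of the 10 only Spred2, in the latter 2 comparisons (-0.39 and -0.57, adjusted p 0.397 and 0.0716).

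The effect of dHLH over EV was then compared between backgrounds. It was lower in YUMM2.1 than in aC3 for 5 of the 10 genes, where 6.55% of all genes were lower and 5.0% higher: Etv5 (-2.42, SE 0.178, edgeR adjusted p = 1.97e-10), Dusp6 (-1.89, SE 0.482, adjusted p = 0.00842), Phlda1 (-1.22, SE 0.166, adjusted p = 6.09e-06), Spry2 (-0.88, SE 0.178, adjusted p = 0.00104) and Spred1 (-0.61, SE 0.176, adjusted p = 0.022). It was lower than in YUMM1.7 for the same 5, where 4.04% of all genes were lower and 5.38% higher: Dusp6 (-1.995), Etv5 (-1.70), Phlda1 (-1.31), Spry2 (-0.67) and Spred1 (-0.60). Both tests share the YUMM2.1 libraries. Spred1 was called in 9 of 16 alternatives against either background and Dusp6 in 14 of 16, missing without YUMM2.1-EV replicate 1 (-1.59 against aC3 and -1.71 against YUMM1.7) and without YUMM2.1-dHLH replicate 2 (-1.45 and -1.56). Spry2 was called in 16 of 16 against aC3 and 10 of 16 against YUMM1.7, and Etv5 and Phlda1 in all 16. The backgrounds come from different experiments and aC3 is 1 clone, so background, clone and experiment cannot be told apart. The doubtful label of YUMM2.1-EV replicate 2 bears on both tests.

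With hairpins against Myh9, Phlda1 was lower in EV cells. It was at 290.9 and 275.9 CPM with shNC, 138.0 and 165.2 CPM with shMyh9#2 and 207.7 and 186.6 CPM with shMyh9#4. The log2 fold changes were -0.90 with shMyh9#2 (SE 0.13, edgeR adjusted p = 0.000276), the hairpin with the lower Myh9, and -0.53 with shMyh9#4 (SE 0.129, adjusted p = 0.0464), the latter lost when any 1 of its 4 libraries was left out. Phlda1 was the only 1 of the 10 genes called, where 6.65% of all genes were called with shMyh9#2 and 1.71% with shMyh9#4. Dusp6 was at 97.4 and 137.1 CPM with shMyh9#2, below both shNC libraries, but missed the threshold (-1.02, SE 0.313, adjusted p = 0.06). Spry2, at 41.8 and 42.0 CPM, was also below its shNC libraries (-0.48, adjusted p = 0.0925).

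In cells with WT or dHLH, where Dusp6, Phlda1, Spry2 and Spred1 were already low, shMyh9#2 gave no further decrease past the threshold. With WT, Dusp4 was higher with shMyh9#2 (20.9 and 17.8 CPM against 12.38 and 12.01 CPM with shNC, log2 fold change 0.66, edgeR adjusted p = 0.044), where 4.76% of all genes were called. This call was lost without any 1 of its 4 libraries and with DESeq2. With dHLH none of the 10 was called for shMyh9#2, where 0.559% of all genes were called, and 1515 genes had an unadjusted p under 0.05, of the 10 only Dusp4 (0.52, adjusted p = 0.312). DESeq2 called none of the 10 there. With WT and shMyh9#4 none of the 10 was called, where 0.236% of all genes were, 1794 genes had an unadjusted p under 0.05, among them Spry2 (0.44) and Spred1 (0.43), and DESeq2 called Spred1.

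The effect of shMyh9#2 on Phlda1 differed between dHLH and EV cells (difference of effects 0.93, SE 0.186, edgeR adjusted p = 0.00921), and no other gene of the 10 passed this test, where 3.29% of all genes did. It was lost without EV-shMyh9#2 replicate 1 (adjusted p = 0.0634) or dHLH-shNC replicate 1 (adjusted p = 0.0605). Sox10 fell with shMyh9#2 in EV cells as well, from 330.0 and 334.0 CPM to 181.4 and 191.5 CPM. Mitf was at 16.3 and 14.6 CPM with shNC and at 25.3 and 22.2 CPM with shMyh9#2 (0.63, edgeR adjusted p = 0.0791). The part of either marker in the result for Phlda1 was not tested.

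**Figure D4:**
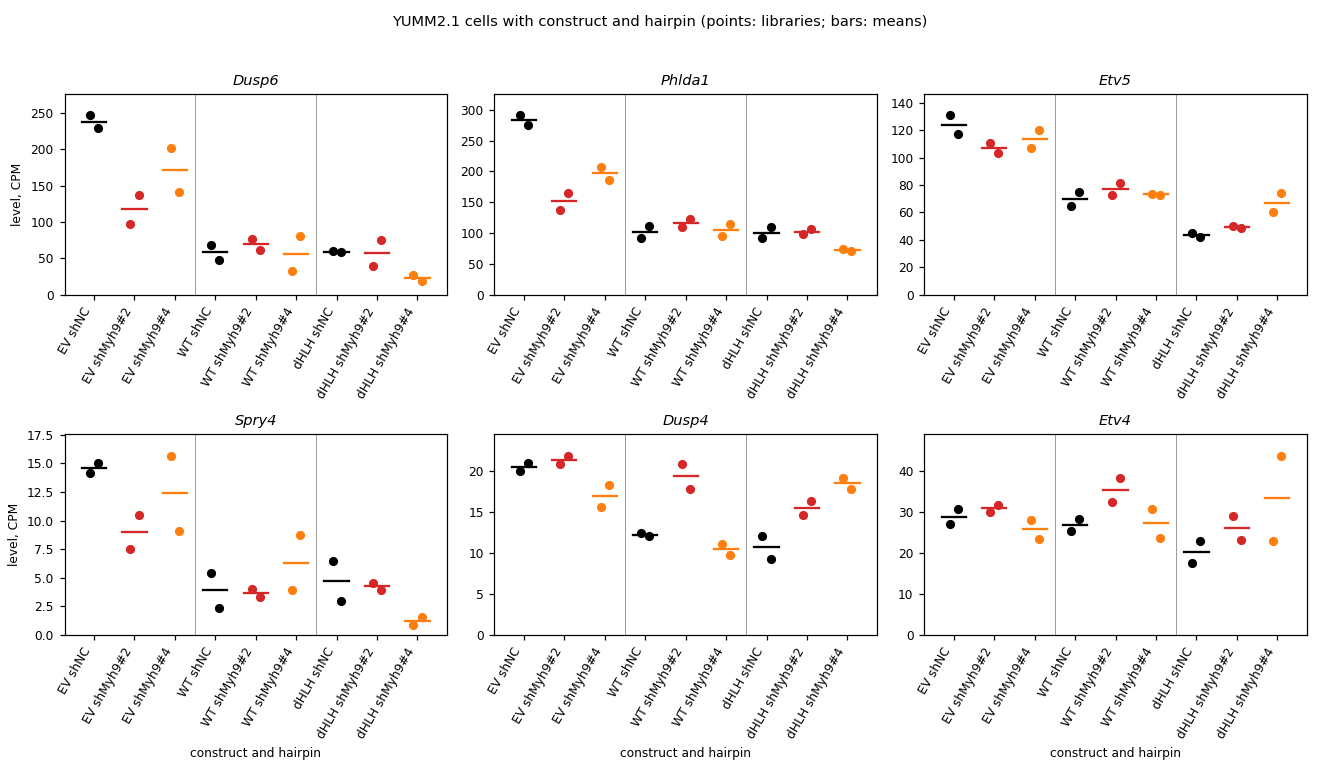
Level in CPM (y axis, from 0) of 6 of the genes in YUMM2.1 cells with each construct and hairpin (x axis). Points are libraries, bars are means, and colours mark shNC (black), shMyh9#2 (red) and shMyh9#4 (orange). Phlda1 falls with both Myh9 hairpins in EV cells, and dHLH cells with shMyh9#4 have the lowest Dusp6, Phlda1 and Spry4.

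The dHLH cells with shMyh9#4 stood apart, with some feedback genes lower and others higher. Dusp6 was at 26.5 and 18.3 CPM against 59.96 and 58.25 CPM with shNC, Spry4 at 0.846 and 1.57 CPM against 6.46 and 2.92 CPM, and Phlda1 at 73.3 and 71.5 CPM against 91.2 and 109.5 CPM. In contrast, Etv5 was at 60.3 and 73.9 CPM against 44.8 and 42.2 CPM, and Dusp4 at 19.2 and 17.7 CPM against 12.1 and 9.25 CPM. Etv4 was at 22.8 and 43.8 CPM against 17.4 and 23.0 CPM, and its libraries overlap.

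With edgeR, 3 of the 10 were lower, where 8.86% of all genes were lower: Spry4 (-1.92, adjusted p = 0.0367), Dusp6 (-1.41, adjusted p = 0.0171) and Phlda1 (-0.45, adjusted p = 0.0367). A further 3 were higher, where 6.28% of all genes were: Etv4 (0.79, adjusted p = 0.039), Dusp4 (0.78, adjusted p = 0.0119) and Etv5 (0.65, adjusted p = 0.00308). These calls depend on single libraries. Without dHLH-shMyh9#4 replicate 2 none of the 6 remained, without dHLH-shMyh9#4 replicate 1 there were 3, and without either dHLH-shNC library there were 2. The 2 shMyh9#4 libraries are also shallow, with 3643332 and 6001340 counts, and Myh9 was at 678.7 and 635.8 CPM against 908.4 and 877.4 CPM with shNC. Sox10 was higher in them (44.5 and 46.0 CPM) than in dHLH-shNC, while Mitf, at 26.8 and 23.99 CPM, missed the threshold (0.50, edgeR adjusted p = 0.118). The part of these markers and of depth was not tested.

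In B16-F10 none of the 10 genes passed edgeR's test between the libraries labelled Bmal1 KO and the control, where 0.440% of all genes did. An unadjusted p under 0.05 was given to 1715 genes, among them Dusp6 and Etv5, and DESeq2 called 390 genes, of the 10 only Dusp6. Dusp6 was at 66.9 and 62.1 CPM in the control and at 37.9 and 17.5 CPM in those labelled Bmal1 KO (-1.23, SE 0.368, edgeR adjusted p = 0.315). Etv5 was at 2.08 and 2.54 CPM against 1.24 and 0.630 CPM (1.29, adjusted p = 0.42), and its counts were low. Neither gene's libraries overlapped between the groups. Without KO replicate 1 edgeR called 6 of the 10 and without KO replicate 2 it called 2, from 3 libraries and so 1 residual degree of freedom, with Dusp6 at -1.89 and -0.77. These fits called 6612 of 15235 and 2213 of 15223 of all genes, so the counts are read against calls that rose everywhere. The 2 libraries labelled Bmal1 KO differed from each other, with Spry1 at 7.55 and 2.06 CPM, Spred2 at 10.2 and 2.25 CPM, and Spry4 at 0.530 CPM and at a count of 0, which allows up to 0.144 CPM at 3 counts in that library.

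**Figure D5:**
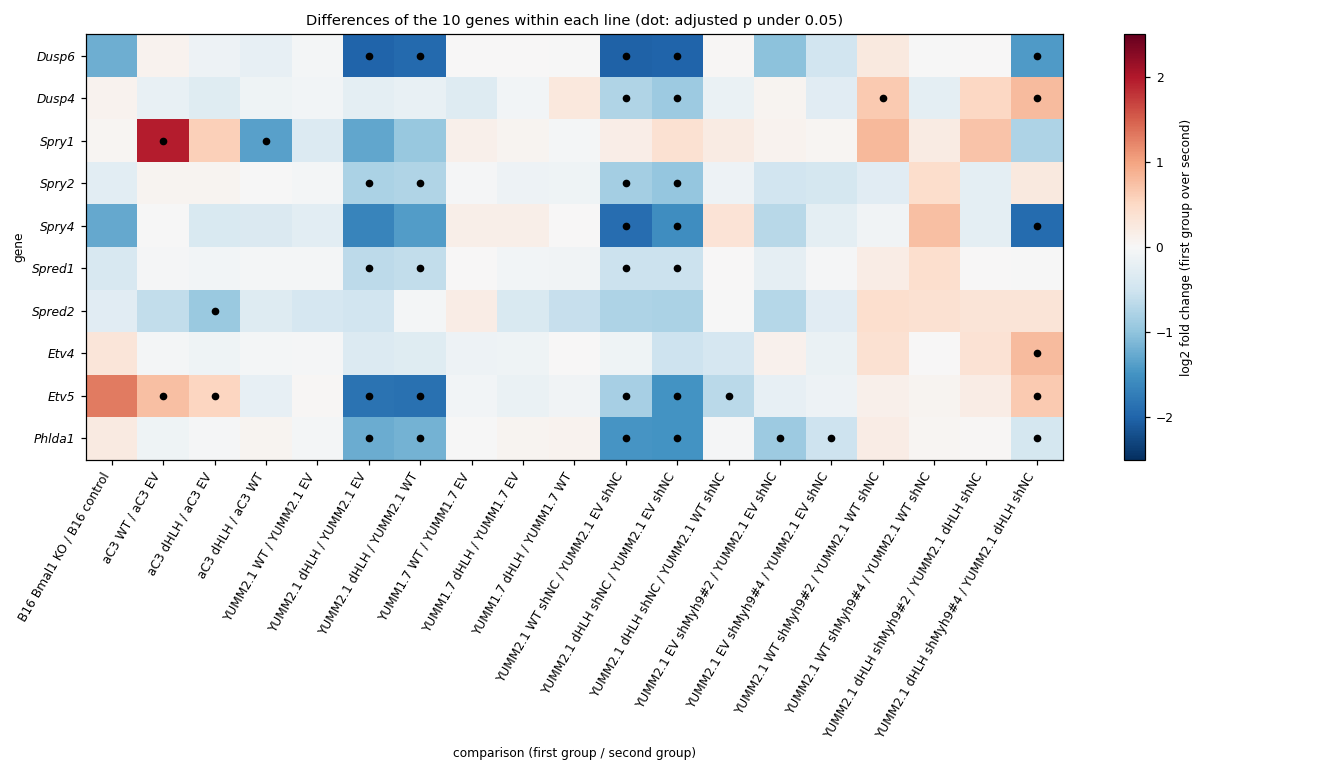
Log2 fold change (colour, blue lower and red higher in the first group) of the 10 genes (y axis) in 19 comparisons within lines (x axis, first group over second). A dot marks an adjusted p under 0.05. Dots on blue gather in YUMM2.1-dHLH and in the 2 constructs with shNC, and the YUMM1.7 columns hold none.

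Other transcripts that respond to ERK were looked at as 15 listed genes, beside 8 further MAPK phosphatases, 22 genes of the cascade itself and 8 nuclear factors that relay the signal. In YUMM2.1-dHLH against EV, where 6.72% of all genes were lower and 6.51% higher, 3 of 15 ERK-regulated transcripts were lower with edgeR, Egr1 (-1.48), the cyclin gene Ccnd1 (-0.70) and the ETS factor gene Etv1 (-0.63), while the ephrin receptor gene Epha4 was higher (4.65, at 3.92 against 0.162 CPM). Of the phosphatases Dusp2 (-3.39, 1.22 against 13.2 CPM) and Dusp7 (-0.46) were lower and Dusp8 (0.90) was higher. Within the cascade 4 of 22 were lower and none higher: the ERK-activated kinase gene Rps6ka1 (-2.61), the scaffold Ksr1 (-1.07), and the RAS inhibitors Rasa2 (-0.82) and Nf1 (-0.56). The genes for BRAF, MEK and ERK were not among those called, and none of the 8 relays was. The list medians were -0.15, 0.50, -0.12 and -0.10, nearer to that of all genes than the median of the 10.

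With shNC more of the ERK-regulated transcripts were called, and the counts of each list are read against the shares of all genes called. In WT-shNC, where 10.6% of all genes were lower and 11.7% higher, 7 of 15 ERK-regulated transcripts were lower and none higher, led by Egr1 (-2.81), Fosl1 (-1.43), Ccnd1 (-0.89) and Ier3 (-0.74), with a list median of -0.34. Dusp2 (-2.82), Dusp5 (-1.59) and Dusp16 (-1.23) were lower and Dusp1 was higher (1.01). Of the cascade 4 of 22 were lower, among them Rps6ka1 (-1.88) and Rps6ka3 (-0.63), and 3 were higher, among them Pebp1 (0.69), which encodes an inhibitor of RAF, so the cascade stood near those shares. In dHLH-shNC, where 12.5% of all genes were lower and 13.9% higher, 7 of 15 ERK-regulated transcripts were lower and Epha4 was higher, with a list median of -0.63. Of the 8 relays, Elk3 (-0.63), Ets1 (-0.60) and Erf (-0.44) were lower and Srf was higher (0.82). Egr1 was higher in dHLH-shNC than in WT-shNC (1.78, adjusted p = 0.00136).

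In aC3-WT, where 11.2% of all genes differed from aC3-EV, 6 of 14 ERK-regulated transcripts tested were lower, among them Lif (-2.46), Epha2 (-1.46) and Fosl1 (-1.45), and 3 were higher, among them Fos (1.16), so that this list moved in both directions while Etv5 and Spry1 rose. In YUMM1.7 no gene of the 4 lists was called with edgeR for WT or dHLH against EV. In EV cells 3 of 15 ERK-regulated transcripts were lower with shMyh9#2, where 6.65% of all genes differed, and none with shMyh9#4. In the libraries labelled Bmal1 KO of B16-F10 no gene of the 4 lists was called. The B16-F10 control had 11 of 15 lower than YUMM2.1-EV and 1 higher, where 25.6% and 21.2% of all genes were, with a list median of -3.00.

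The 12 YUMM2.1 groups outside aC3 (24 libraries) carry EV, WT or dHLH, with or without a hairpin. Over these groups most of the 10 genes varied together, and the correlations include the construct differences given above. As a description, with points that share depth and constructs, the Pearson correlation of a gene's group mean log2 level with the mean of the other 9 was 0.946 for Spred1 and for Etv5, 0.927 for Phlda1, 0.915 for Dusp6, 0.854 for Spry2, 0.824 for Spry4, 0.815 for Spred2, 0.667 for Etv4, 0.602 for Spry1 and 0.241 for Dusp4. The closest pair was Phlda1 and Dusp6 (0.984). Of 8725 other genes compared over the same 12 groups, the 5 most like the mean of the 10 were Sh3pxd2a (0.984), Etv6 (0.982), Pank3 (0.978), Gas2l3 (0.976) and Cdkn3 (0.975). Etv6, itself an ETS family gene, ranged from 12.3 to 30.6 CPM over the group means.

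In GRCm38 coordinates Dusp4 lies on chromosome 8 (34807297 to 34819894, plus strand), Dusp6 on chromosome 10 (99263231 to 99267489, plus), Phlda1 on chromosome 10 (111506286 to 111508645, plus) and Spry1 on chromosome 3 (37639947 to 37644598, plus). Spry2 lies on chromosome 14 (105891947 to 105896819, minus), Spred1 on chromosome 2 (117121374 to 117182279, plus), Spred2 on chromosome 11 (19924375 to 20024026, plus), Etv4 on chromosome 11 (101769742 to 101785371, minus), Etv5 on chromosome 16 (22381309 to 22439719, minus) and Spry4 on chromosome 18. Phlda1 and Spry1 each overlap 1 annotated gene on the other strand and Spry4 overlaps 2, and whether reads were counted by strand is not stated in the sources used here, so reads of those neighbours cannot be told from theirs.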

How the data were processed

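RNA of 40 libraries of mouse melanoma cells was sequenced by the authors with QuantSeq FWD 3′ chemistry (single reads), aligned with bowtie2 to mm10 and counted per Ensembl gene with RSEM. The deposited values are whole-number counts. The Ensembl release, rounding and strand setting are not given in the sources used here. The authors' own fold changes and p-values were not used. Genes were named from GENCODE M21. Counts were filtered by expression and fitted per experiment with edgeR 4.0.16 in R 4.3.3 (TMM, quasi-likelihood), with lines and differences of effects between experiments fitted over all libraries and the difference of shMyh9#2 effects within the hairpin experiment, and Benjamini-Hochberg adjustment over all genes. DESeq2 1.42.0 was an alternative. All 27 comparisons used groups taken from the labels. Same-numbered YUMM2.1 libraries deviated together (r 0.181 to 0.393 in 3 pairs), so the fit with a replicate block is given beside the YUMM2.1 results, whose main values come from the fit without it. Levels are TMM CPM, with 1 CPM added before logs for correlations. Of each pathway list at most 4 genes a comparison are named, those called with the largest changes, at least 10 counts on average and groups that do not overlap. The genes, lists and added tests were chosen with earlier results of these data known. Scripts were tested on simulated data. SE include the spread between libraries, and the limit for a count of 0 covers counting error only. Some items of the labels and lists are not reported here.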

Additional observations from a re-analysis of the deposited data

Results flagged for a closer look

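The effect of dHLH over EV differed between YUMM2.1 and aC3, by edgeR's test of the difference itself, for Dusp6 (-1.89), Spry2 (-0.88), Spred1 (-0.61), Etv5 (-2.42) and Phlda1 (-1.22), each more negative in YUMM2.1 on the log2 scale. It differed in the same direction between YUMM2.1 and YUMM1.7 for Dusp6 (-1.995), Spry2 (-0.67), Spred1 (-0.60), Etv5 (-1.70) and Phlda1 (-1.31). In both cases background and experiment cannot be told apart, and aC3 is 1 clone. The effect of shMyh9#2 on Phlda1 differed between dHLH and EV cells by 0.93. In a test chosen after seeing the data, the effect of WT over EV was more negative with shNC than without a hairpin for Dusp6 (-1.98), Spry2 (-0.80), Etv5 (-0.85) and Phlda1 (-1.42).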

How the results depend on the processing

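Over 3130 values of single genes under the alternatives, 2820 kept their direction and side of the threshold, 103 fell below it, 66 passed it, and 140 changed sign without being called in either fit. The remaining 1 changed sign and passed the threshold, though it was not called in the main fit. It was Spry1 in B16-F10 without the library labelled Bmal1 KO replicate 1 (-1.18, against 0.044 in the main fit and 0.691 without replicate 2). The exchange of labels, the fits without the 2 doubtful libraries and the added test were chosen after seeing the data. Numbers below are how many of the 10 genes were called. Calls over all genes moved with the setting as well. They went from 64 with edgeR to 390 with DESeq2 in B16-F10, and from 35 to 246 for shMyh9#4 in WT cells. A change below therefore need not be particular to the 10. In B16-F10 the count was 1 with DESeq2, without a filter and with a replicate block, and 3 in a single fit of all libraries. In that single fit it was 1 for aC3 dHLH over EV, 0 for aC3 dHLH over WT, 2 for shMyh9#2 in EV cells and 0 in WT cells. With no filter it was 1 for YUMM1.7 dHLH over WT, 2 for shMyh9#2 and 2 for shMyh9#4 in EV cells, 0 for shMyh9#2 in WT cells and 2 for the difference of shMyh9#2 effects. With DESeq2 it was 0 for shMyh9#2 and 1 for shMyh9#4 in WT cells, and with a replicate block 0 for shMyh9#2 in WT cells. shMyh9#4 in EV cells gave 0 without the dHLH shMyh9#4 libraries. aC3-EV over YUMM2.1-EV gave 2 with DESeq2, no filter, the replicate block, exchanged labels or without the 2 libraries, and 0 in a fit of those groups only. Without the 2 libraries dHLH over WT in YUMM2.1 gave 3 and the added test 2. In YUMM2.1 dHLH over EV the replicate block gave 7. Correlations of same-numbered libraries were 0.181 to 0.393 there and -0.142 to 0.199 in the other experiments, so the ranges overlap. Pairing of the YUMM2.1 libraries and the 2 doubtful labels cannot be told apart here. Leaving out 1 library gave 0 to 6 in B16-F10, 2 to 2, 1 to 2 and 0 to 1 in aC3 (WT over EV, dHLH over EV, dHLH over WT), 0 to 0, 3 to 6 and 2 to 4 in YUMM2.1 and 0 to 0 in YUMM1.7 in the same order, and 5 to 7, 6 to 7 and 0 to 1 with shNC. It gave 1 to 1 and 0 to 0 for shMyh9#2 and shMyh9#4 in EV cells, 0 to 0 for both in WT cells, and 0 to 0 and 0 to 3 in dHLH cells. Between lines it gave 5 to 6 (YUMM1.7 over YUMM2.1), 7 to 9 (B16-F10 over YUMM2.1), 1 to 2 (aC3 over YUMM2.1) and 9 to 9 (B16-F10 over YUMM1.7). For differences of effects it gave 3 to 6 (aC3), 2 to 6 (YUMM1.7), 0 to 1 (shMyh9#2) and 3 to 4 (the added test). Low counts of Spry1, Spry4 and Etv4, and 2 libraries a group, limit what could be detected.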
